A study of Mus musculus with 8 samples.

Results

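Removal of the C-terminal tail of STING was examined by comparing macrophages that carry a tail-deleted mouse STING with macrophages that carry mouse STING with its tail. Both lines are Sting-/- mouse macrophages with a stable transgene, labelled dCTT (mSTING-dCTT) and mSTING. They supplied 4 of the 8 RNA libraries of the series, 2 for each of these groups. The other 4 libraries came from the same Sting-/- cells with no transgene (no_transgene, 2 libraries) and with mSTING-zfCTT, mouse STING bearing a zebrafish tail (zfCTT, 2 libraries). Every library was made after 4 h of CMA (10-carboxymethyl-9-acridanone) at 500 µg/ml, a synthetic ligand of mouse STING that activates it directly. All 4 groups therefore lack endogenous Sting and all were stimulated, and the values are levels after CMA and not inductions by it. The labels do not say whether a line is 1 clone, how much protein each line makes, or whether the 2 libraries of a group were separate cultures, so the spread behind each p-value is that of these libraries and could be technical. Genes were compared where the deposited RPKM (reads scaled to gene length and library size) was at least 1 in at least 2 of the 4 dCTT and mSTING libraries, which kept 12588 of 53715 genes.

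STING is a membrane protein of the endoplasmic reticulum that is activated by cyclic dinucleotides made by cGAS on cytosolic DNA. Its C-terminal tail holds the docking site for the kinase TBK1 and the serine motif on which IRF3 is recruited and phosphorylated. IRF3 and the NF-kB dimers then switch on type I interferon and inflammatory genes, and secreted interferon acts through receptors, JAK kinases and STAT proteins on the interferon-stimulated genes. A pair of DNA words stands for these routes in promoters: the interferon-stimulated response element (ISRE), read by IRF proteins, and the kB site, read by NF-kB.

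The 250 bases before the transcription start of 5 genes are shown because these genes span what the comparison found. Cxcl10 carries both words and had the lowest difference of any named gene. Isg15, Rsad2 and Ifit1 carry ISRE words and were at or near 0 with the tail-deleted protein. Nfkbia is an NF-kB target with a smaller difference. Sequences are from RefSeq on GRCm38.p6, 5′ to 3′ in the direction of the gene, and capitals mark matches to the ISRE word (GAAA, 2 free letters, GAAA) or the kB word (GGGA, 2 free letters, TTCC) on either strand.
Cxcl10 (chr5:92348890-92349139, minus strand): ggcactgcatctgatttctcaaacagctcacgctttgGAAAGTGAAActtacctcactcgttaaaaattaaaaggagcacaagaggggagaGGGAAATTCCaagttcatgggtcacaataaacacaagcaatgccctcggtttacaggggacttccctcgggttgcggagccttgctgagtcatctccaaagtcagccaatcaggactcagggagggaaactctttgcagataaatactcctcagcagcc
Isg15 (chr4:156200819-156201068, minus strand): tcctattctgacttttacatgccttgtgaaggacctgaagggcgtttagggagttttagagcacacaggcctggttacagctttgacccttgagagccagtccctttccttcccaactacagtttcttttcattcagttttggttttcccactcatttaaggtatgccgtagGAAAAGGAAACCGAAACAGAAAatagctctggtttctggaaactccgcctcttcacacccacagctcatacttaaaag
Rsad2 (chr12:26456453-26456702, minus strand): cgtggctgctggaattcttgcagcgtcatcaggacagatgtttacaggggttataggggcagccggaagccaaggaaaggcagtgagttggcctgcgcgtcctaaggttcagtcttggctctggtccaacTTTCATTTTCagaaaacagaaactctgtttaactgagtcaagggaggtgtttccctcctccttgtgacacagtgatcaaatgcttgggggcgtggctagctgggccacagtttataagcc
Ifit1 (chr19:34640639-34640888, plus strand): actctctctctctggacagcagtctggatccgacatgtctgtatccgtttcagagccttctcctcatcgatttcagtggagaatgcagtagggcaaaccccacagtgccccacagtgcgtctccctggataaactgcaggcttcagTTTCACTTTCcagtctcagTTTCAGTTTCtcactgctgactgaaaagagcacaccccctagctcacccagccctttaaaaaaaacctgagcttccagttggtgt
Nfkbia (chr12:55492648-55492897, minus strand): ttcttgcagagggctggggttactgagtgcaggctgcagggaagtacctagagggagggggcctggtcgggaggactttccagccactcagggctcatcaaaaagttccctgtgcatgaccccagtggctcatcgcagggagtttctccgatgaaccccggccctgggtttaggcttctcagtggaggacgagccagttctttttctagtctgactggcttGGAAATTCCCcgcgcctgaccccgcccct
The Cxcl10 window held an ISRE match from 213 to 204 bases before the start and a kB match from 159 to 150. Isg15 held 3 overlapping ISRE matches that began 78, 72 and 66 bases before the start. On the opposite strand, Rsad2 held 1 ISRE match from 120 to 111 bases before the start, Ifit1 held ISRE matches that began 104 and 85 bases before it, and Nfkbia held a kB match from 29 to 20. In the RefSeq promoter table, 3.46% of 27025 gene symbols held an ISRE match in a window of this length and 1.36% a kB match. Among the genes tested here, 7331 had an entry, of which 3.34% held an ISRE match and 1.45% a kB match. A match is a string of letters and not a measured binding site.

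Tail-deleted STING went with low RNA of interferon-stimulated genes and of several chemokines. Cxcl10, Isg15, Ccl5, Irf7, Rtp4, Oasl1, Usp18, Cmpk2, Rsad2 and Ifit1 read 1.19 RPKM or less in both dCTT libraries and 2.17 to 335 RPKM in the mSTING libraries. Transcripts of NF-kB inhibitors and feedback genes differed less. Nfkbia, Nfkbie and Bcl3 were lower in dCTT, with log2 differences down to -1.05. Tnfaip3, which encodes A20, had a log2 difference of 0.01 ± 0.22 (SE, with 2 libraries on each side). On the higher side of dCTT the differences of named genes were smaller and included Rxra, Apoc2, Fcgr3 and Hes1. With limma on log2(RPKM + 1) and Benjamini-Hochberg adjustment over the 12588 genes, 0 genes (0.0%) had an adjusted p under 0.05, and the smallest adjusted p was 0.111. Log2 differences below are dCTT minus mSTING on that scale, where a given fold looks smaller for genes with low RPKM.

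At an unadjusted p under 0.05, 324 genes (2.57%) differed, fewer than the 629 that 12588 null tests would give on average. Of these, 195 (1.55%) were lower in dCTT and 129 (1.02%) higher. Each of the 195 had both dCTT libraries below both mSTING libraries, as had 1597 of all genes tested (12.7%). Each of the 129 had both dCTT libraries above both mSTING libraries, as had 1987 (15.8%). The filter itself fixes part of this: 47 of the 195 passed only through mSTING and 37 of the 129 only through dCTT, so these had to differ. The number of genes under the unadjusted threshold depended on single libraries: 128 without mSTING replicate 1, 731 without mSTING replicate 2, 135 without dCTT replicate 1 and 367 without dCTT replicate 2. For a single gene, an exact two-sided permutation test of 2 libraries against 2 cannot give a p under 0.333. "Lower" and "higher" below describe values that passed no adjusted threshold. In bulk RNA, fewer responding cells and less RNA per cell cannot be told apart.

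**Figure D1:**
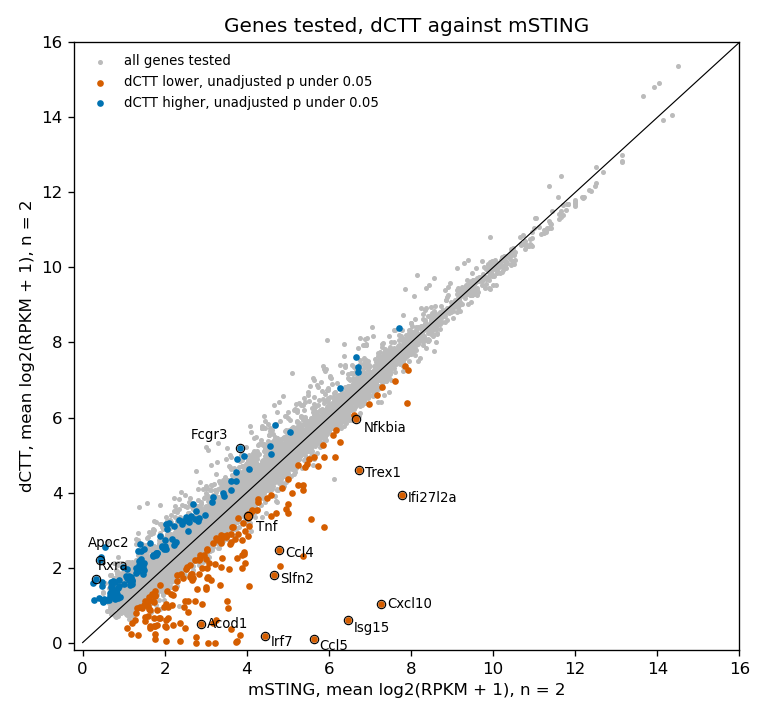
Mean log2(RPKM + 1) of the 2 dCTT libraries (y axis) against that of the 2 mSTING libraries (x axis), 1 point for each of 12588 genes, with the line of equality. Orange and blue points have an unadjusted limma p under 0.05 with dCTT lower (195) or higher (129); Cxcl10, Isg15, Ccl5 and Irf7 lie lowest against the line, near 0 to 1 in dCTT.

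The transgene was checked first through Tmem173, the gene of STING. It read 22.7 and 14.98 RPKM in dCTT, 10.6 and 22.2 in mSTING, and 3.23 and 2.42 without transgene. Its 2 groups overlapped and differed by 0.25 ± 0.38 (SE, n = 2 per group; limma unadjusted p = 0.539). One RPKM value for the whole gene cannot show whether the tail is encoded. Both STING lines were therefore above the no_transgene cells in STING RNA, and the mSTING library with the lower Tmem173 was the one with the higher interferon-stimulated RNA (below).

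Transcription factors of the interferon response are described first. Irf7, the factor that amplifies type I interferon transcription, read 0.0999 and 0.148 RPKM in dCTT and 60.5 and 6.61 in mSTING, 270-fold higher by the means, with a log2 difference of -4.27 ± 0.86. The dCTT values were close to the 0.115 and 0.181 of cells with no transgene. Irf9, the DNA-binding partner of Stat2, read 1.157 and 0.963 in dCTT against 8.12 and 5.13 in mSTING, a difference of -1.86 ± 0.21 with a limma adjusted p of 0.141. Its 2 mSTING libraries were 1.58-fold apart, against 9.16-fold for Irf7. Irf1, an early factor of both interferon types, read 4.60 and 4.02 against 24.6 and 8.21. Stat2, a signal transducer of type I interferon, read 0.567 and 0.584 against 3.87 and 1.27 (-1.08 ± 0.33, limma unadjusted p = 0.0144). Socs1, the feedback inhibitor of JAK kinases, read 0.241 and 0.387 against 9.44 and 2.06. For every gene of this paragraph the groups did not overlap and dCTT was the lower one. Irf7 shares exonic sequence with Phrf1, Irf9 with Rnf31 and Irf1 with Gm17334, and since the strand setting of the counting is not given in the sources used here, their reads could include those of the partner.

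Of the 9 interferon regulatory factors 7 were tested, with a median difference of -0.37 (-0.07 without mSTING replicate 1); 3 had an unadjusted p under 0.05 and dCTT lower (1.55% of all genes), and 0 with dCTT higher (1.02%). Of 19 interferon receptors, JAK kinases, STATs and their inhibitors, 15 were tested, with a median of -0.04 beside 0.03 for all genes tested, and 3 were under the unadjusted threshold (1.55% of all genes), among them Stat2 and Socs1, with dCTT lower. The interferon genes themselves gave almost no reads in either group: of 18 listed, 0 reached the filter. Ifnb1, which encodes interferon beta, had 0 reads in both dCTT libraries and 4 and 6 in the mSTING libraries, against 281 and 135 in zfCTT. These are raw reads from libraries of unlike depth. Depth was 20.1 and 34.8 M reads in zfCTT, 88.1 and 88.2 M in mSTING and 55.7 and 171 M in dCTT.

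Effectors that act on viral RNA and proteins were at or near 0 reads in dCTT for several members. Rsad2, which encodes viperin, had 0 reads in both dCTT and both no_transgene libraries and read 14.5 and 3.46 RPKM in mSTING. Against the level that 3 reads per library would give in dCTT, mSTING was at least 1090.3-fold higher. Ifit1, a binder of viral RNA caps, was likewise at 0 reads in both dCTT libraries and read 13.7 and 2.17 in mSTING, at least 591-fold higher. Cmpk2, a mitochondrial nucleotide kinase and neighbour of Rsad2, had 0 and 1 reads in dCTT and read 17.8 and 3.70 RPKM in mSTING. Such floors cover counting error only.
Rtp4, an interferon-induced chaperone, read 0.0590 and 0.00821 against 21.3 and 7.35 (-3.72 ± 0.41, limma adjusted p = 0.139); it shares exonic sequence with Gm45338. Ifi27l2a differed from these in its baseline: it read 11.5 and 17.7 in dCTT and 12.3 and 21.1 without transgene, and 514 and 92.3 in mSTING. All of these genes were high in both mSTING libraries and higher in replicate 1.

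The oligoadenylate synthetase family, whose active members make the activator of RNase L, split in the same manner into silent and basal members. Oasl1, a translation inhibitor of Irf7, read 0 and 0.0224 RPKM in dCTT and 20.4 and 7.19 in mSTING, and shares sequence with Gm13822. Oas1g and Oas3 had basal RNA in dCTT, at 3.94 and 3.88 for Oas1g and 0.892 and 0.888 for Oas3, against 85.7 and 18.5 and against 21.95 and 4.999 in mSTING. Of 13 listed synthetase genes, 8 were tested, 5 of them only through mSTING, and 7 were lower at the unadjusted threshold (1.55% of all genes) with a median of -2.48. The near-identical Oas1 copies can exchange reads, which makes their single values uncertain.

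The ubiquitin-like modifier Isg15 read 0.499 and 0.509 RPKM in dCTT and 247 and 30.5 in mSTING, 276-fold higher by the means (-5.88 ± 0.87, limma adjusted p = 0.415). Its dCTT values lay beside the 0.477 and 0.810 of cells without transgene, while its 2 mSTING libraries were 8.11-fold apart. Usp18, the protease that removes Isg15 from proteins, read 0.219 and 0.102 against 26.1 and 6.60. Ube2l6, the conjugating enzyme, had basal RNA and read 3.28 and 4.30 against 19.4 and 7.88 (-1.498 ± 0.47). The order of the 3 conjugation genes by difference was thus Isg15, Usp18, Ube2l6.

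Among sensors of foreign nucleic acid, Dhx58 (LGP2, a regulator of RIG-I-like receptors) read 1.005 and 1.34 RPKM against 19.8 and 5.23, and Trim25 and Zc3hav1, partners of RIG-I signalling, differed by -0.58 ± 0.19 and -0.66 ± 0.20. Trex1, the exonuclease that degrades cytosolic DNA, read 23.5 in both dCTT libraries and 163 and 68.3 in mSTING (-2.12 ± 0.38, limma adjusted p = 0.661). Cgas, the enzyme that makes the STING ligand, read 3.80 and 3.69 against 7.79 and 5.06. Trex1 shares sequence with Atrip, Dhx58 with Dhx58os and Cgas with Gm8093. The list of STING signalling genes as a whole lay near all genes, with a median of -0.05 over 15 tested genes, 3 of them lower at the unadjusted threshold (1.55% of all genes).

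In several families with interferon-linked members, most of the tested members were also lower in dCTT. The immunity-related GTPases Irgm1, Igtp and Irgm2, which act on pathogen vacuoles, differed by -1.35 ± 0.38, -1.81 ± 0.51 and -1.14 ± 0.31; Igtp and Irgm2 share exons. Slfn2, a Schlafen protein that binds transfer RNA, read 2.28 and 2.68 RPKM against 38.7 and 15.4. Parp12 and Parp9, ADP-ribosyltransferases linked to interferon, differed by -1.32 ± 0.42 and -1.02 ± 0.37. Ifi211, of the PYHIN DNA-binding family, read 0.473 and 0.379 against 10.4 and 1.33, and Trim21, the cytosolic antibody receptor, read 0.435 and 0.554 against 2.65 and 1.22. Tested members with an unadjusted p under 0.05 and dCTT lower were counted, beside 1.55% of all genes. They were 11 of 17 direct antiviral effectors, 4 of 5 GTPases and 4 of 4 genes of the PARP list. Schlafen, TRIM and PYHIN genes gave 2 of 4, 1 of 4 and 3 of 5. The PARP list includes Dtx3l, which shares exons with Parp9. At that threshold 1 of the 17 effectors was higher in dCTT and 0 members of the other lists, beside 1.02% of all genes. Other listed members did not reach the filter: 7 effectors, 14 GTPases, 2 genes of the PARP list, 5 Schlafen, 9 TRIM and 6 PYHIN genes. The filter lets through members that are high in mSTING alone, which was the case for 5, 3, 0, 1, 1 and 2 of these lists' tested members.

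**Figure D2:**
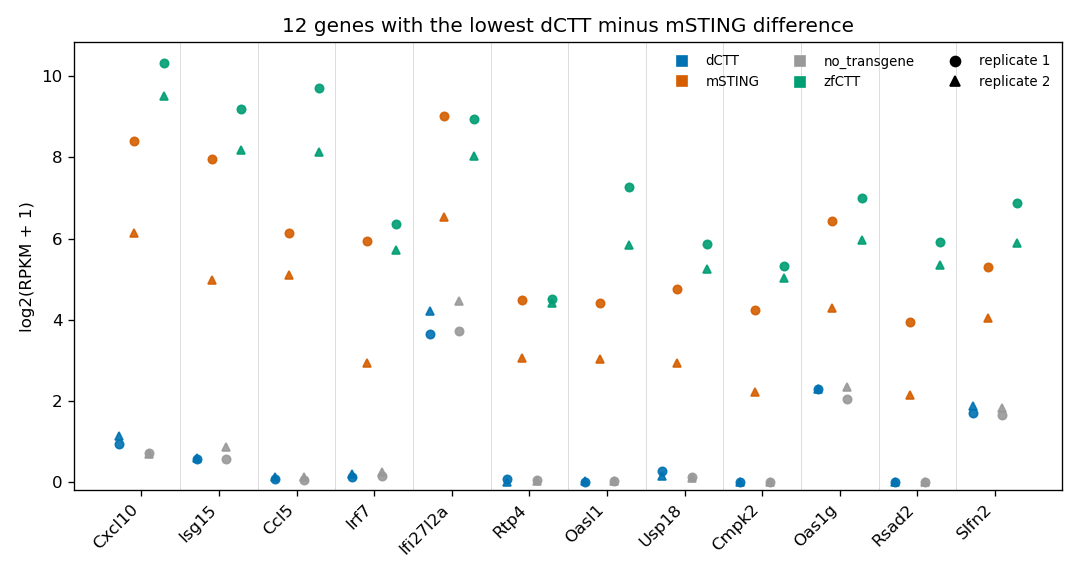
log2(RPKM + 1) of the 12 genes with the lowest dCTT minus mSTING difference, 1 point per library, colour for the group and shape for the replicate number. In each gene the dCTT points (blue) lie below both mSTING points (orange) and near the no_transgene points (grey), and mSTING replicate 1 (circle) lies above replicate 2 (triangle).

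Chemokines differed in how far their RNA depended on the group. Cxcl10, which draws activated T and NK cells, read 0.909 and 1.19 RPKM in dCTT and 335 and 68.9 in mSTING, 193-fold higher by the means (-6.23 ± 0.68, limma adjusted p = 0.139); it shares sequence with Art3. Ccl5, also called RANTES, had 3 and 15 reads in dCTT, or 0.0561 and 0.0911 RPKM, and read 69.3 and 33.7 RPKM in mSTING (-5.52 ± 0.54, limma adjusted p = 0.111). Ccl4, an NF-kB-driven macrophage chemokine, was present without the tail at 2.48 and 7.91 and equal in the mSTING libraries at 26.4 and 26.8. Of 23 chemokines 9 were tested, with a median of -1.22; at the unadjusted threshold 4 were lower (1.55% of all genes) and 1 was higher (1.02%). One of the 9 passed the filter only through mSTING and 1 only through dCTT. The chemokine median was -0.66 without dCTT replicate 1 and -1.77 without dCTT replicate 2. Ccl5 lies on chromosome 11 at 83525778 to 83530518, and Cxcl10 on chromosome 5 at 92346638 to 92348889 (GRCm38).

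Few inflammatory cytokines were expressed in either group. Tnf read 8.26 and 10.5 RPKM in dCTT, 14.9 and 15.9 in mSTING, and 8.87 and 9.45 without transgene (-0.67 ± 0.27, limma unadjusted p = 0.044). Csf1, the macrophage growth factor, read 0.0578 and 0.232 against 2.22 and 1.04. Il6 and Il12b, inflammatory cytokines, had at most 4 reads in any of the 4 libraries and were not tested. Of 26 inflammatory cytokines 7 were tested, with a median of -0.10. When single libraries were left out the median ranged from -0.13 to -0.28, lowest without dCTT replicate 1 and -0.21 without mSTING replicate 2. At the unadjusted threshold 2 were lower (1.55% of all genes) and 0 higher (1.02%). Of the 7, 1 passed the filter only through mSTING.

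Inhibitors of NF-kB, themselves NF-kB targets, did not differ alike between the groups. Nfkbia, which encodes the inhibitor IkB-alpha, read 58.9 and 64.9 RPKM in dCTT, 110 and 91.6 in mSTING and 46.7 and 53.4 without transgene, a difference of -0.69 ± 0.19 (limma unadjusted p = 0.00921). Nfkbie and Bcl3, of the same IkB family, differed by -1.05 ± 0.41 and -0.88 ± 0.34. For these 3 genes the dCTT libraries lay below the mSTING libraries. Tnfaip3 read 10.4 and 11.8 against 9.35 and 13.1, with groups that overlapped. Over 13 NF-kB subunits and inhibitors the median was -0.18 (-0.11 without dCTT replicate 1), with 3 lower at the unadjusted threshold beside 1.55% of all genes. Over 21 feedback genes and targets it was -0.09 (0.05 without mSTING replicate 2), with 0 lower. Among 24 immediate early genes, which respond to kinase signalling within minutes, the median was -0.25 and 1 was lower at that threshold (1.55% of all genes), Fosl1 at 1.70 and 3.001 against 4.09 and 7.13. Junb read 75.5 and 135 against 180 and 171. This list's median was -0.04 without dCTT replicate 1, -0.16 without mSTING replicate 2 and -0.46 without dCTT replicate 2.

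Genes of MHC class I and class II presentation lay on opposite sides of 0. Tap1, the peptide transporter, read 2.09 and 2.23 RPKM against 13.6 and 4.24; it shares sequence with Psmb9. Tapbp, its partner in peptide loading, differed by -0.92 ± 0.34 and the heavy-chain gene H2-Q4 by -0.95 ± 0.34. Of 24 tested class I genes, 13 had both dCTT libraries below both mSTING libraries (12.7% of all genes) and 0 above (15.8%). Their median was -0.57, against -0.15 and -0.92 when the first or the second mSTING library was left out, and 4 were lower at the unadjusted threshold (1.55% of all genes). The 5 tested class II genes had both dCTT libraries above both mSTING libraries (15.8% of all genes), with a median of 0.46. One of them, H2-DMa, passed the filter only through dCTT and so had to differ. For H2-DMa and H2-Oa the unadjusted limma p was 0.028 and 0.0276 (1.02% of all genes were higher at 0.05). Their levels were low: H2-DMa read 1.47 and 2.097 against 0.698 and 0.975, and H2-Oa read 3.09 and 2.50 against 1.43 and 1.68.

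The smallest p of the comparison belonged to a metabolic gene. Acod1, which makes the antimicrobial metabolite itaconate from the citric acid cycle, read 0.486 and 0.338 RPKM in dCTT, 7.48 and 5.47 in mSTING, 0.192 and 0.237 without transgene and 54.3 and 43.5 in zfCTT. Its difference was -2.39 ± 0.20 (limma unadjusted p = 9.5e-06, adjusted p = 0.111), and its 2 mSTING libraries were 1.37-fold apart. It lies on chromosome 14 at 103046977 to 103056573 (GRCm38). Ass1, which feeds arginine synthesis, read 5.37 and 3.06 against 19.8 and 9.62. Of 15 listed genes of inflammatory metabolism 7 were tested, 1 of them only through mSTING. At the unadjusted threshold 3 were lower (1.55% of all genes) and 0 higher (1.02%). Daxx, a nuclear cofactor listed with cell death genes, differed by -1.161 ± 0.35.

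Several low genes stood outside the lists and were chosen after their values were seen. Ffar4, a receptor for long-chain fatty acids, read 1.07 and 0.808 RPKM in dCTT and 4.90 and 4.29 in mSTING (-1.53 ± 0.15, limma adjusted p = 0.111). Gfi1b, a transcriptional repressor of blood cells, read 0.363 and 0.354 against 4.07 and 2.15, and Msantd3 read 0.0182 and 0.0266 against 3.17 and 2.95. Hspb7, a small heat shock protein, had another pattern from the interferon genes: it read 0.240 and 0.824 in dCTT, 4.56 and 15.2 in mSTING, 0.0912 and 0.967 without transgene and 0.252 and 0.529 in zfCTT. It was therefore high in the mSTING libraries and, of those, higher in replicate 2.

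The 2 mSTING libraries did not have like RNA levels. Replicate 1 exceeded replicate 2 by a median of 1.06 log2 units over the tested direct antiviral effectors, 1.66 over the synthetases, 1.83 over the Isg15 conjugation genes, 1.18 over the GTPases and 0.77 over the class I genes, beside -0.03 over all genes tested. The chemokine, NF-kB subunit and NF-kB target lists lay at -0.02, 0.07 and 0.05. In dCTT the same contrast of replicates gave 0.03 for the effectors and 0.00 for the synthetases, and -0.50 for the immediate early genes. List medians moved with this: without mSTING replicate 1 the effector median was -0.68 and without replicate 2 it was -1.75, beside -1.22 with both. For the synthetases the values were -1.45 and -3.50, and for the GTPases -0.89 and -1.73. For the PARP list they were -0.50 and -1.65, and for the PYHIN genes -0.49 and -1.92.
Without mSTING replicate 2, limma with 1 library on that side called 20 genes at an adjusted p under 0.05, among them Cxcl10, Isg15, Irf7, Usp18, Cmpk2, Rsad2 and Rtp4; the lone library is then assumed to vary like the other groups. Replicate 1 also stood apart in transcripts with no link to interferon. Ppia, a housekeeping gene chosen after its values were seen, read 33.1 RPKM there and 198 in replicate 2, against 318 and 193 in dCTT, and Rps27a, of the small ribosomal subunit, read 51.1 and 210 against 285 and 188. The part of this difference between libraries in the results was not tested.

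**Figure D3:**
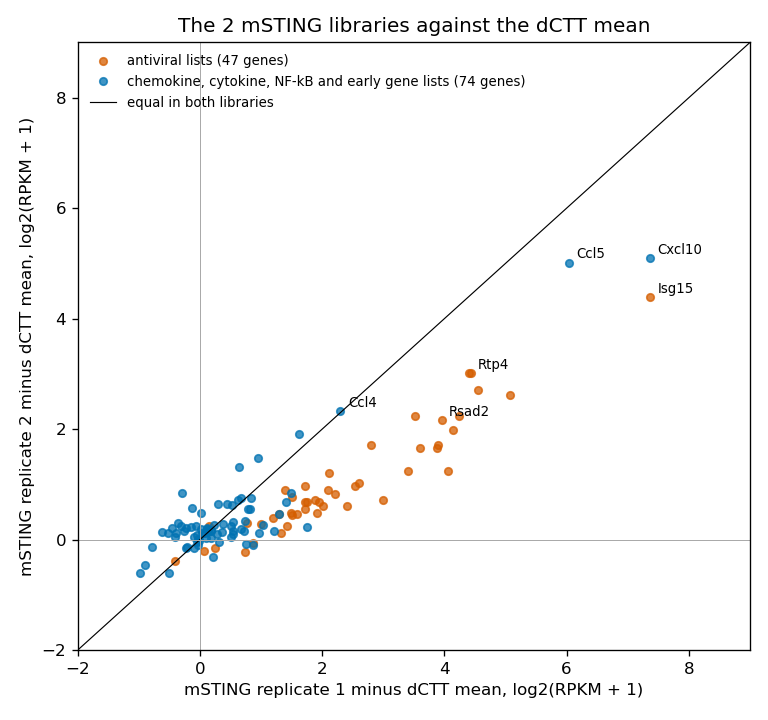
Excess of mSTING replicate 1 (x axis) and of mSTING replicate 2 (y axis) over the dCTT mean, both in log2(RPKM + 1), for 47 genes of the antiviral lists (orange) and 74 of the chemokine, cytokine, NF-kB and immediate early lists (blue). Most antiviral genes lie below the line of equality, nearer the axis of replicate 1, while Ccl4 lies on the line.

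On the higher side of dCTT, the named genes encode nuclear and surface receptors, secreted proteins and enzymes. Rxra, the retinoid X receptor that pairs with many nuclear receptors, read 2.07 and 2.37 RPKM in dCTT, 0.224 and 0.262 in mSTING, 1.65 and 2.40 without transgene and 0.137 and 0.200 in zfCTT. Its difference of 1.37 ± 0.16 had a limma adjusted p of 0.151, the smallest among the 12 highest named genes. It lies on chromosome 2 at 27676440 to 27762957 (GRCm38). Apoc2, an activator of lipoprotein lipase, read 3.69 and 3.49 against 0.154 and 0.544, and shares sequence with Gm44805. Fcgr3, a low-affinity receptor for antibody, read 37.4 and 33.6 against 8.33 and 21.2, and Ptgs1, the constitutive cyclooxygenase, read 28.8 and 31.8 against 9.33 and 21.6. In these genes the groups did not overlap, although mSTING replicate 2 lay nearer to dCTT for Fcgr3 and Ptgs1.
Hes1, the repressor induced by Notch receptors, read 3.62 and 5.47 in dCTT, 1.159 and 1.97 in mSTING and 0.0490 and 0.268 in zfCTT (1.11 ± 0.27). Notch1, chosen after its values were seen, read 1.64 and 2.53 against 0.530 and 0.702. Sash3, a lymphoid adaptor on chromosome X, read 8.72 and 7.38 against 3.15 and 3.04. Trf, the iron carrier transferrin, read 8.78 and 7.54 against 2.37 and 4.40, and Rnase4 and Ang, secreted ribonucleases that share exons, differed by 1.23 ± 0.48 and 1.03 ± 0.39. Wtip and Ccdc85c were also higher in dCTT than in mSTING, at 3.23 and 1.26 against 0.590 and 0.209 and at 4.85 and 4.07 against 1.95 and 1.44. Unlike Rxra and Hes1 they read highest in zfCTT, at 7.07 and 4.87 for Wtip and 15.4 and 8.75 for Ccdc85c. The small RNA gene Mir7688 completed the 12, with 10 and 11 reads in dCTT and 0 and 2 in mSTING.

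**Figure D4:**
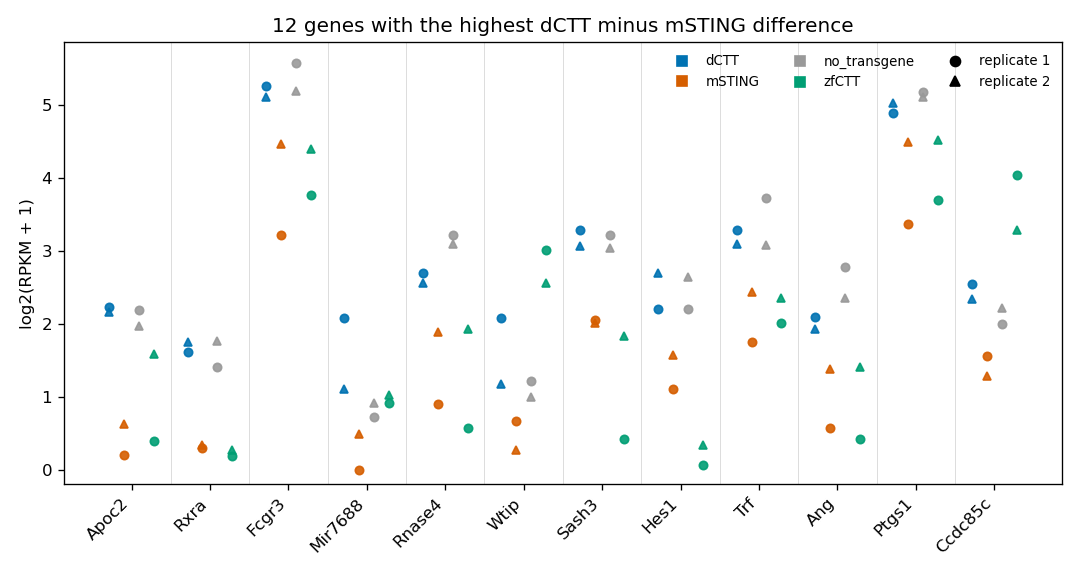
log2(RPKM + 1) of the 12 genes with the highest dCTT minus mSTING difference, 1 point per library, colour for the group and shape for the replicate number. The dCTT points (blue) lie above both mSTING points (orange) in each gene; Rxra has its mSTING and zfCTT points close to 0, and Wtip and Ccdc85c lie highest in zfCTT (green).

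Complement genes, which macrophages express as components and receptors, were placed on the same side. All 10 tested were higher in dCTT by the means, 8 without overlap (15.8% of all genes were so placed), with a median of 0.50. Only C5ar2, a receptor of the fragment C5a, had an unadjusted limma p under 0.05, at 0.018, reading 3.30 and 3.13 RPKM against 1.47 and 1.74; it shares sequence with Gm26473. C1qb read 111 and 82.1 against 60.9 and 32.0. Vsir, the checkpoint protein VISTA, read 7.30 and 9.57 against 5.49 and 4.37. Lyz2, the lysozyme of macrophages, read 237 and 167 against 50.02 and 132, with mSTING replicate 1 again the lowest.

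Counted by size alone, more genes were higher than lower. Differences over 1 log2 unit were found for 95 genes with dCTT lower and 193 with dCTT higher, and over 2 units for 28 and 9. Of the 28, 18 belonged to the interferon-linked and class I lists, against 103 of all 12588 genes tested, and 25 were protein-coding. Those lists were drawn up with earlier results of these libraries known, so the count is a description. The 9 held no protein-coding gene. Of the 193, 82 were processed pseudogenes, intronless copies of expressed genes, and 47 were protein-coding, while of the 95, 2 and 74 were. The median RPKM of the 82 pseudogenes was 56.3 and 17.3 in dCTT and 5.60 and 15.7 in mSTING, and 50.2 and 14.6 without transgene. High values thus stood in the first replicate of dCTT and of no_transgene, and the low value in the first replicate of mSTING. Without mSTING replicate 1, 88 genes were higher by over 1, 34 of them processed pseudogenes; without dCTT replicate 1 they were 76 and 17. The lower side gave 68 and 97 genes in those fits. Without mSTING replicate 2, 502 genes were higher and 187 lower by over 1, and without dCTT replicate 2, 583 and 156. The reads of a pseudogene and its parent cannot be fully told apart in these values.

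The other 4 libraries allowed the 2 sets of genes to be read where no library is shared. Of the 195 genes lower in dCTT, 166 (85.1%) had both zfCTT libraries above both no_transgene libraries, against 2301 of all genes tested (18.3%), and 13 had both below. Of the 129 genes higher in dCTT, 101 (78.3%) had both zfCTT libraries below both no_transgene libraries, against 2706 (21.5%), and 9 had both above. Without the genes that passed the filter through 1 group only, the shares were 120 of 148 (81.1%) on the lower side, beside 18.0% of 12416 genes, and 75 of 92 (81.5%) on the higher side, beside 21.4%. The fit that chose the genes drew its spread from all 8 libraries, and across genes the same-numbered libraries of no_transgene and dCTT deviated from their group means together (r = 0.76). Chosen from a fit of the dCTT and mSTING libraries alone, 185 lower genes gave 156 (84.3%) and 200 higher genes gave 121 (60.5%). The share on the lower side ranged from 63.6% without dCTT replicate 2 to 90.9% without dCTT replicate 1. On the higher side it was 44.1% without mSTING replicate 2 and 36.7% without dCTT replicate 2.

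The same promoter words were counted over both sets of genes. Of the 195, 136 had a promoter entry and 22 of these (16.2%) held an ISRE match, beside 3.34% of the genes tested. Of the 128 symbols on the higher side, 82 had an entry and 3 (3.66%) held one. For the kB letters the counts were 5 of 136 (3.68%) and 3 of 82 (3.66%), beside 1.45%. Among the 12 lowest named genes 8 had an entry and 4 an ISRE match, Cxcl10, Isg15 and Rsad2 shown above and Oas1g. Without the genes that passed the filter through 1 group only, an ISRE match stood in 12 of 107 entries (11.2%) on the lower side and 2 of 58 (3.45%) on the higher side, beside 3.18% of 7234. Genes on both sides were chosen from the compared values, so these shares are a description. The words are short, allow free letters in the middle and were sought only in 250 bases.

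**Figure D5:**
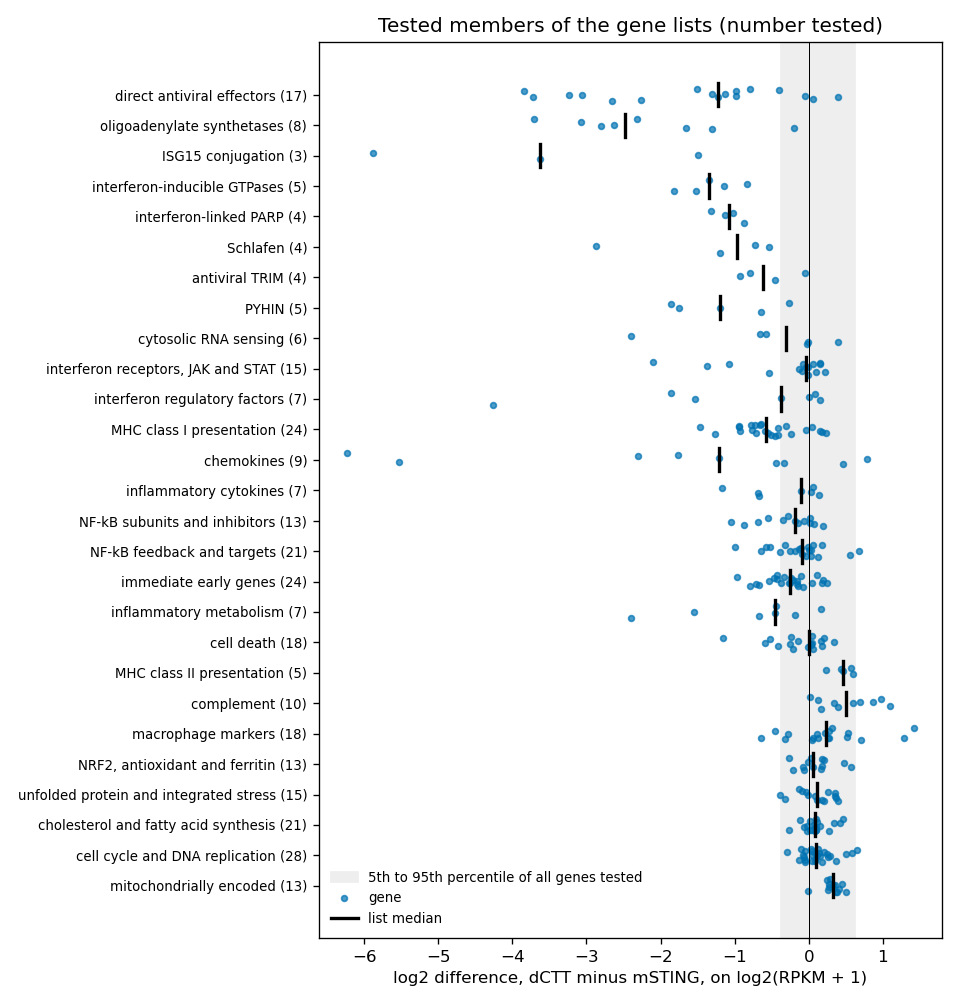
Log2 difference dCTT minus mSTING of each tested member (points) of 27 gene lists, with list medians (bars) and the band from the 5th to the 95th percentile of all genes tested, -0.37 to 0.62. Points left of the band lie mostly in the antiviral, synthetase, Isg15, class I and chemokine lists. Complement and class II genes lie right of 0, the class II genes inside the band and the complement genes partly inside it.

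Programs of growth and stress stayed near the median of all genes, 0.03. The medians were 0.10 for 28 cell cycle and replication genes, 0.09 for 21 genes of cholesterol and fatty acid synthesis, 0.11 for 15 genes of the unfolded protein and integrated stress responses, 0.06 for 13 NRF2 and ferritin genes, 0.01 for 18 cell death genes and 0.02 for 79 cytosolic ribosomal protein genes. With single dCTT or mSTING libraries left out, these 6 medians lay between -0.06 and 0.24. The 13 mitochondrially encoded transcripts had a median of 0.33, against 0.53 and 0.10 when the first or the second mSTING library was left out. In the 5 lists other than cell death and in the mitochondrial list, 0 genes had an unadjusted p under 0.05. Cebpa, a transcription factor of myeloid cells, read 27.5 and 43.6 RPKM against 32.8 and 33.8.

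The cells were macrophages by their RNA in all 4 libraries. Of 20 macrophage markers, 18 reached 1 RPKM, and their summed level was 2016 to 2397 in dCTT and 1809 to 2231 in mSTING. Of the markers of T and NK cells (8 genes), B cells (5), neutrophils and mast cells (9), dendritic cells (6) and fibroblasts, endothelium and epithelium (10), 0 reached 1 RPKM, and the highest read 0.111. Among the genes at 0 in all 4 were Cd3e, Cd8a, Ncr1, Pax5, Ly6g, Ngp, Cpa3, Mcpt4, Clec9a, Col1a2, Col3a1 and Dcn. Depth read from the steps of the RPKM values was 55.7 and 171 M reads for dCTT and 88.1 and 88.2 M for mSTING. Of genes with at least 100 reads, 75.6% in dCTT and 77.4% in mSTING differed between the 2 libraries by more than counting error, so the libraries were not copies of each other.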

How the data were processed

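Per the labels' protocols, single-end Illumina libraries were made from polyadenylated RNA. The authors deposited RPKM for 53715 Ensembl genes in 8 libraries. Per the submitters' processing notes, cutadapt 1.16, HISAT2 2.1.0, GRCm38 and mm10 were used, with no roles stated. How reads were counted, with which annotation and whether by strand, is not given in the sources used here. Exon sharing then also leaves uncertain Usp18 (with Gm44148), Parp9 (Dtx3l), Bcl3 (Gm16175), Tapbp (Zbtb22), H2-Q4 (Gm11131), H2-DMa (Brd2), H2-Oa (BC051537), Fosl1 (Ccdc85b), Junb (Prdx2), Cebpa (Gm45091), Trf (Gm20425), Ptgs1 (Gm43621), Notch1 (Gm13568) and Rps27a (Clhc1). Symbols, biotypes, coordinates and exon overlaps came from GENCODE M21, which matched 53620 identifiers and left 95. RPKM times exon length gave whole reads within 0.05 of a read for 94.9% to 95.5% of values, which gave the depths.

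Tests used limma 3.58.1 (R 4.3.3) with log2(RPKM + 1), over genes that reached an RPKM of 1 in 2 or more of the dCTT and mSTING libraries. All 8 libraries entered 1 fit of group means with 4 residual degrees of freedom and an intensity trend, with Benjamini-Hochberg adjustment at 0.05. The method was tested on simulated data. Errors are SE from the fit. Fold ratios are ratios of mean RPKM, and 0 was taken as fewer than 3 reads per library. The labels state no pairing, and same-numbered dCTT and mSTING libraries did not deviate together across genes (r = 0.03), so no block was used; for other pairs of groups r was up to 0.76.

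The members, the 38 gene lists and the tests were chosen with earlier results of these data known. Genes were named by rule: up to 12 lowest and 12 highest differences with an unadjusted p under 0.05, a mean RPKM of at least 2 in the higher group, groups that do not overlap and a symbol that is no gene model or pseudogene; up to 3 members of each list with the smallest p; and 15 fixed genes, of which 1 is not reported here. Others are said to have been chosen after their values were seen. Alternatives covered the pseudocount, the filter, the libraries fitted, the scaling, the trend, voom on recovered reads, a replicate block, protein-coding genes only and leaving out single libraries.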

Additional observations from a re-analysis of the deposited data

How the results depend on the processing

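At an adjusted p under 0.05, 0 genes were called in the reported limma fit, against 324 at an unadjusted p under 0.05. Calls appeared under a pseudocount of 0.1 (4 genes, Acod1, Ccl5, Rtp4 and Oasl1, all lower in dCTT), without a filter on low values (14, all with differences under 0.4 log2 units), without the zfCTT libraries (2, Ccl5 and Msantd3) and with protein-coding genes only (7: Acod1, Ccl5, Ffar4, Cxcl10, Rtp4 and Irf9 lower and Rxra higher). Leaving out 1 library of either group gave 0 to 20 calls: 20 without mSTING replicate 2, 1 without dCTT replicate 1 (the pseudogene Gm12182) and 0 without the others. Every other setting gave 0 adjusted calls: a pseudocount of 0.5, a mean RPKM of at least 5, the 4 libraries alone, median-ratio scaling, no trend, voom and the 2 fits with a replicate block. So did leaving out the first replicates of no_transgene and dCTT together, which was chosen after seeing the data and left 133 genes at the unadjusted threshold. Leaving out genes that pass the filter through 1 group only was also chosen after seeing the data. Replicate numbers of dCTT and mSTING did not deviate together (r = 0.03 across genes), so they were not taken as pairs, although other groups' numbers did (up to 0.76 for no_transgene and dCTT); with the replicate block the calls stayed at 0, and 492 genes (8 libraries) and 421 genes (4 libraries) passed the unadjusted threshold.

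Of 74 tested genes named, 71 kept their direction in all 17 alternatives. The exceptions had differences near 0: Tmem173 was -0.25 without mSTING replicate 1, -0.04 without dCTT replicate 1 and -0.04 without the first replicates of no_transgene and dCTT; Tnfaip3 was -0.019 with median-ratio scaling, -0.22 without mSTING replicate 1 and -0.08 without dCTT replicate 2; Cebpa was -0.27 without dCTT replicate 2. Over single libraries left out, Tmem173 ranged from -0.25 to 0.74, Tnfaip3 from -0.22 to 0.23 and Cebpa from -0.27 to 0.38. The cause was not tested. List medians of genes near 0 in dCTT also moved with the pseudocount: at 0.1 the synthetase median was -3.37 and the GTPase median -2.20. Depth limits genes with few reads in dCTT, such as Rsad2 and Ifit1, for which only bounds can be given, and with 2 libraries per group a missing call does not show equal levels.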
